A study of Mus musculus with 6 samples.

Results

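Fatty acid synthesis, elongation and desaturation were followed through 10 genes (Acly, Acaca, Acacb, Fasn, Scd1, Scd2, Elovl5, Elovl6, Fads1 and Fads2), picked by symbol from the 34745 genes of the deposited expression table. All 10 were found, once each. The tumours grew from Hep1-6 cells, a mouse hepatoma line kept in culture and then injected under the skin of C57BL/6J mice. In the HCD group (n = 3) the hosts ate a high cholesterol diet, and in the ND group (n = 3) a normal diet. No genotype, agent, host age or time of harvest is given for either group. Each sample is bulk RNA from a tumour piece, so host cells are measured along with hepatoma cells, and fewer cells of a type cannot be told apart from less RNA per cell. The labels do not state that each tumour came from its own mouse, so p-values measure only the spread between these samples.

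Fatty acids are built in the cytosol from citrate-derived acetyl-CoA. Acly releases that acetyl-CoA, the carboxylases Acaca and Acacb turn it into malonyl-CoA, and Fasn joins the units into palmitate. Elovl enzymes lengthen fatty acids at the endoplasmic reticulum, and Scd and Fads enzymes insert double bonds. In liver the pathway is driven by insulin and carbohydrate through SREBP and ChREBP, and the oxysterol receptor LXR, which senses sterols, can raise it by inducing Srebf1. Sterol depletion activates the SREBP family as well, and sterol excess restrains it.

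Levels are given as FPKM, that is, fragments per kilobase of gene, scaled to the size of the library. Library sizes implied by the steps between values were 20351637 to 20918325 fragments in the HCD libraries and 20622728 to 26228073 in the ND libraries. Alb, the hepatocyte product serum albumin, averaged 1439 ± 250 FPKM in HCD and 1375 ± 155 FPKM in ND tumours (SD, n = 3 each), while Cps1, Cyp2e1, Apoa2 and Serpina1a lay below a mean of 0.5 FPKM over the 6 libraries. The 10 hepatocyte markers, led by Alb and Rbp4, summed to 1563 to 2203 FPKM in HCD and 1718 to 2071 FPKM in ND tumours.

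The 10 genes spanned a wide range of levels, and their order was nearly fixed across tumours. Scd2 stood highest, at 359 ± 29.0 FPKM over the 6 libraries (SD, n = 6), the 79th highest mean among 13417 tested genes. Scd1 followed at 103 ± 6.18 FPKM, so Scd2 exceeded Scd1 3.49-fold, in 6 of 6 libraries. In adult mouse liver Scd1 is the usual main isoform, whereas Scd2 is best known from brain and from liver in early life. Fads1 (38.4 ± 4.14 FPKM), Fads2 (31.0 ± 6.26), Acly (29.7 ± 2.54), Fasn (23.2 ± 1.89) and Elovl5 (19.1 ± 1.18) came next. Elovl6 (5.50 ± 0.827), Acaca (3.36 ± 0.377) and Acacb (0.348 ± 0.193) closed the order (SD, n = 6 for each). Neighbours in this order had separate ranges over the 6 libraries, except that Fads1 overlapped Fads2 and Fads2 overlapped Acly.

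**Figure D1:**
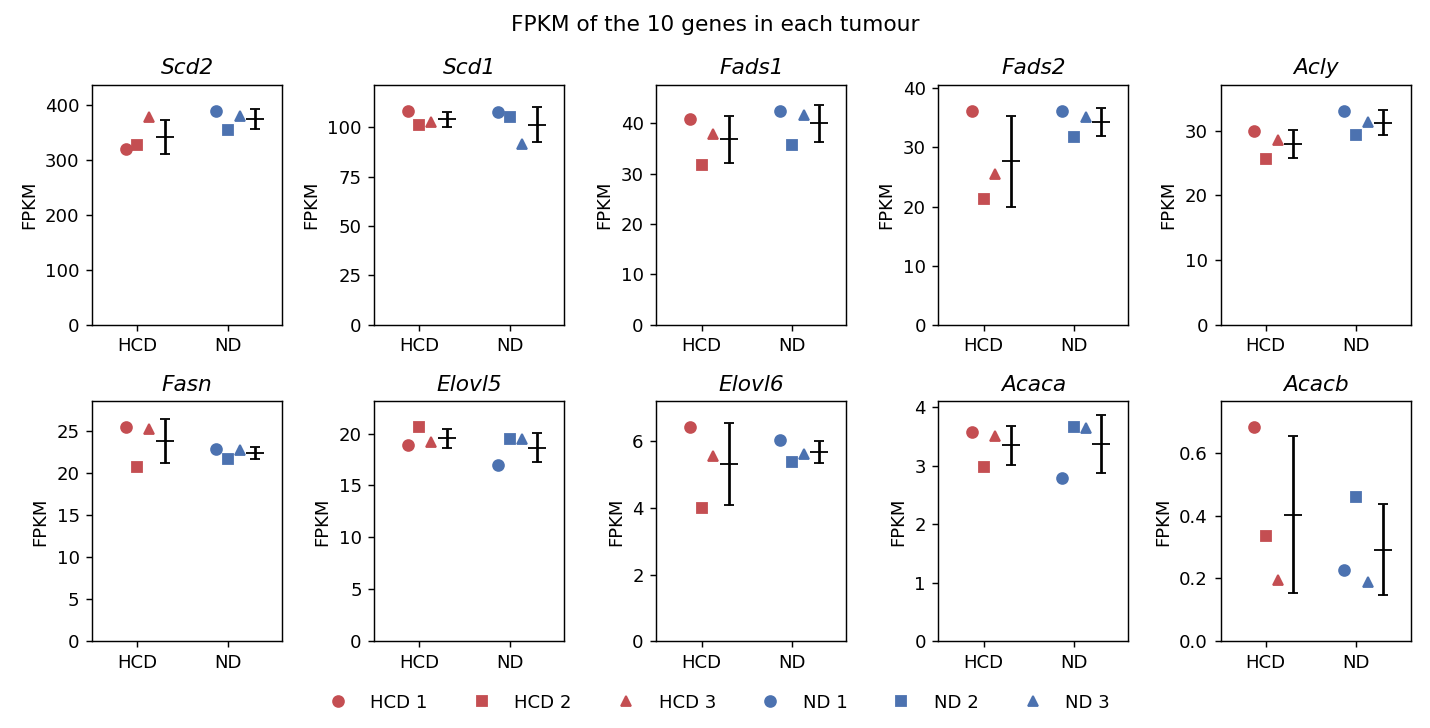
FPKM of the 10 genes (linear axes from 0), HCD tumours in red on the left and ND tumours in blue on the right of each panel; points are single tumours and bars mean ± SD (n = 3 per group). In every panel the 2 groups overlap, and Fads2, Elovl6 and Acacb are the most spread genes within HCD.

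Levels between genes depend on the length that each FPKM was divided by. The lengths implied by the values were 8190 bases for Acly, 11053 for Elovl6 and 3456 for Fads1, against GENCODE M21 exon lengths of 5279, 6431 and 4812 bases. Over the M21 lengths Acly averaged 46.0 FPKM and Fads1 27.6 FPKM, which put Acly in place 3 and Fads1 in place 6, and Fads1 then exceeded Fads2 in 2 of 6 libraries in place of 6. Scd2 and Scd1 kept places 1 and 2. Differences between diets within a gene are not touched by its length, apart from the effect of the pseudocount. That effect weighs most on Acacb, whose values lie below 1 FPKM.

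RefSeq promoter sequences (GRCm38.p6) were on hand for 7 of the 10 genes, all but Scd1, Scd2 and Fads1. They are shown for Fasn, the central enzyme, and for Acly, the tested member with the lowest unadjusted p between diets, as the 200 bases before the RefSeq start site, 5′ to 3′ on the gene's strand. For both genes that site is the outer end of the M21 gene span given with the values. Capitals mark CCAAT, the core of the NF-Y box, and GGGCGG, the GC box, on either strand.
Fasn, chr11:120824548-120824747, minus strand: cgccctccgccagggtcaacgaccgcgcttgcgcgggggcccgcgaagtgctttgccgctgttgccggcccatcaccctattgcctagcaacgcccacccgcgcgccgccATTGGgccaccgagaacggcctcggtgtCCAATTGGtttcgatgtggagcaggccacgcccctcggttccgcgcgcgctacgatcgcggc
Acly, chr11:100528001-100528200, minus strand: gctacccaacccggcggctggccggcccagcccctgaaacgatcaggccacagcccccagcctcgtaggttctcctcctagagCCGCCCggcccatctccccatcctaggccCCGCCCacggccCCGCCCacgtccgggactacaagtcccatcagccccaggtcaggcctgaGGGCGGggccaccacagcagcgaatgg
The full searched window ran from 250 bases before to 50 bases after the RefSeq start. That start lay within 31 bases of the outer M21 gene end for Acly, Fasn, Elovl5 and Elovl6, but 243 bases inside the gene span for Fads2, 18983 bases inside for Acacb and 65766 bases inside for Acaca, so the Acacb and Acaca windows do not cover the outermost start. The Fasn window held 3 CCAAT matches, of which 2 overlap in one palindrome-like run. That of Elovl5 held 2 and that of Acacb 1, and CCAAT occurred in 37.4% of 32851 mouse promoter windows of this length. Acly held 4 GC boxes, and 1 CCAAT after the start site that is not printed, and Fads2 held 1 GC box, against 35.7% of all windows with a match. None of these 7 windows held TCACNCCAC, a sterol element type found in 1.24% of all windows, or the direct repeat with a spacer of 4 bases (0.0152%). Of the 7 windows that of Elovl5 alone held the E-box CACGTG (7.15% of all windows). These matches are letters in a window and say nothing of binding.

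The comparison of HCD with ND asks whether these transcripts in the tumour differ with dietary cholesterol. None of the 10 genes passed. In limma on log2(FPKM + 1), with Benjamini-Hochberg adjustment over all 13417 genes that averaged 0.5 FPKM or more, 0 of the 9 tested members were called, against 0.00% of all tested genes, and none reached an unadjusted p of 0.05, against 5.88% of all tested genes. Means were higher in HCD for 3 of the 9 (Fasn, Scd1 and Elovl5) and lower for 6, with a median log2 difference of -0.09. Among all tested genes 55.7% had a higher mean in HCD and the median difference was 0.019. Groups were free of overlap in 0 of the 9, against 12.1% of all tested genes. Acacb, the remaining member, lay under the level for testing and was examined in a fit without that filter. Limma-voom on reads recovered from the value steps also called 0 of the 10, and 0.00% of its 13368 genes, with 5.33% at an unadjusted p under 0.05.

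**Figure D2:**
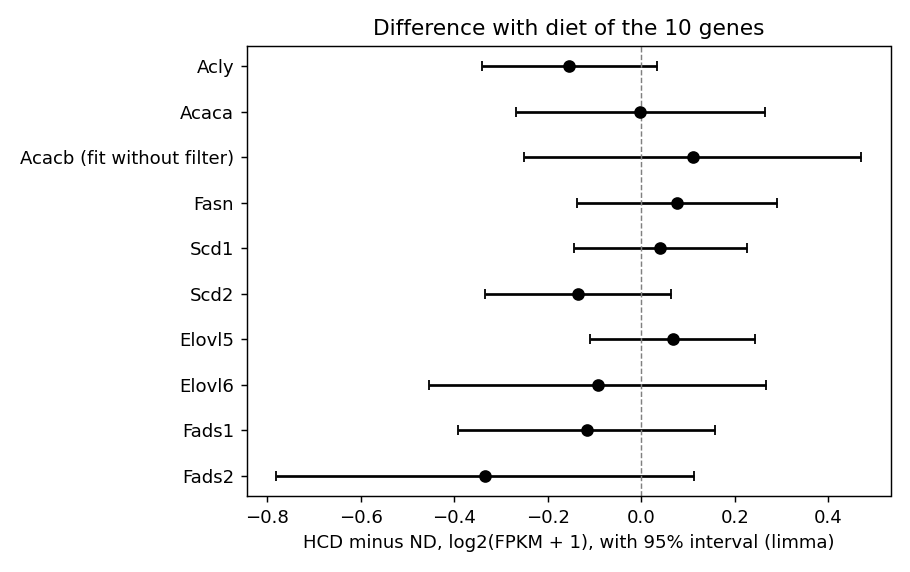
HCD minus ND difference on the log2(FPKM + 1) scale for the 10 genes, with 95% intervals from limma (points, estimates; bars, intervals; dashed line, no difference). All intervals cross 0; that of Elovl5 is the narrowest, from -0.11 to 0.24, and that of Fads2 the widest, from -0.78 to 0.11.

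Acly, ATP citrate lyase (ENSMUSG00000020917, GRCm38 chromosome 11, 100476353 to 100528000), had 29.9, 25.7 and 28.5 FPKM in HCD 1 to HCD 3, against 33.1, 29.4 and 31.3 FPKM in ND 1 to ND 3. Only HCD 1 reached into the ND range, and only just. The log2 difference was -0.15 (SE 0.077, 95% interval -0.34 to 0.033, limma adjusted p = 0.794), which is the lowest unadjusted p among the members (0.0904). Without HCD 2 the difference was -0.094. Between 4291 and 6315 reads per library stood behind these values.

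Acaca, the cytosolic acetyl-CoA carboxylase (ENSMUSG00000020532, chromosome 11, 84129672 to 84401651), differed between the groups by less than its spread. It averaged 3.35 ± 0.331 FPKM in HCD and 3.37 ± 0.496 FPKM in ND tumours (SD, n = 3 each), with a log2 difference of -0.002 (95% interval -0.27 to 0.26, limma adjusted p = 0.997). The lowest tumour was ND 1 (2.79 FPKM) and the highest ND 2 (3.66 FPKM), so the ND group alone spanned the whole range. Fasn, fatty acid synthase (ENSMUSG00000025153, chromosome 11, 120805846 to 120824547), had 25.5, 20.8 and 25.2 FPKM in HCD 1 to HCD 3, against 22.9, 21.7 and 22.8 FPKM in ND 1 to ND 3. HCD held both the highest 2 tumours and the lowest. Its log2 difference of 0.076 (SE 0.088, limma adjusted p = 0.859) was 0.17 without HCD 2 and 0.027 without HCD 1.

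Among the elongases, Elovl5, which lengthens polyunsaturated fatty acids (ENSMUSG00000032349, chromosome 9, 77917364 to 77984519), ran from 18.9 to 20.6 FPKM in HCD and from 17.0 to 19.5 FPKM in ND tumours. Its log2 difference was 0.067 (95% interval -0.11 to 0.24, limma adjusted p = 0.847), and this was the one member with its highest level in HCD 2. Elovl6, which turns palmitate into stearate (ENSMUSG00000041220, chromosome 3, 129532355 to 129638495), had 6.42, 3.995 and 5.56 FPKM in HCD 1 to HCD 3, against 6.03, 5.37 and 5.602 FPKM in ND 1 to ND 3. The highest and the lowest tumour were both from HCD, and the 3 ND tumours lay between them. The log2 difference of -0.093 (SE 0.148, limma adjusted p = 0.890) turned to 0.067 without HCD 2. An antisense gene, Gm35986, shares 34 exon bases with Elovl6 and averaged 0.084 FPKM.

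Scd1 and Scd2 encode stearoyl-CoA desaturases, which make oleate and palmitoleate and lie close together on chromosome 19 (44394455 to 44407879 and 44293674 to 44306864). Scd2 (ENSMUSG00000025203) had 321, 328 and 378 FPKM in HCD 1 to HCD 3, against 390, 355 and 381 FPKM in ND 1 to ND 3. HCD 1 and HCD 2 were below every ND tumour, and HCD 3 was within the ND range. The log2 difference was -0.14 (SE 0.082, 95% interval -0.33 to 0.064, limma adjusted p = 0.794), and it was -0.091 without HCD 1 and -0.21 without HCD 3. Scd1 (ENSMUSG00000037071) had 108, 101 and 103 FPKM in HCD 1 to HCD 3, against 108, 105 and 91.5 FPKM in ND 1 to ND 3. It was the steadiest member, with a coefficient of variation of 6.01% over the 6 libraries, against a median of 10.9% over all tested genes, and its difference of 0.04 (95% interval -0.14 to 0.23, limma adjusted p = 0.909) turned to -0.032 without ND 3. Scd1 and Scd2 are similar in sequence, and the sources used here do not give how reads shared by both were assigned.

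Fads2 and Fads1 act in turn on essential fatty acids to make long polyunsaturated ones, Fads2 at the rate-limiting step, and neighbour each other on chromosome 19 (10062765 to 10101746 and 10182888 to 10196877) on opposite strands. Fads2 (ENSMUSG00000024665) had 36.2, 21.3 and 25.5 FPKM in HCD 1 to HCD 3, against 36.2, 31.7 and 35.2 FPKM in ND 1 to ND 3. HCD 2 and HCD 3 were below every ND tumour, while HCD 1 was level with the highest of them. This gave the largest difference of the tested members, -0.33 on the log2 scale (SE 0.184, 95% interval -0.78 to 0.11, limma adjusted p = 0.794), which was -0.17 without HCD 2 and -0.54 without HCD 1. Fads1 (ENSMUSG00000010663) had 40.9, 31.7 and 38.0 FPKM in HCD 1 to HCD 3, against 42.5, 35.7 and 41.6 FPKM in ND 1 to ND 3. Only HCD 2 fell outside the ND range, and the difference of -0.12 (SE 0.113, limma adjusted p = 0.828) was -0.016 without HCD 2.

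The 95% intervals give the changes that remain compatible with these values. Over the 9 tested members they ran from 0.582-fold (the lower end for Fads2) to 1.22-fold (the upper end for Fasn), on the FPKM + 1 scale. For Scd1 the interval was 0.905-fold to 1.17-fold, and for Elovl5 it was 0.927-fold to 1.18-fold.

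Several of these transcripts had their lowest level in the same tumour. HCD 2 was lowest of the 6 libraries for Acly, Fasn, Elovl6, Fads1 and Fads2, that is for 5 of the 10 members, against 19.5% of all tested genes. Relative to the ND mean, HCD 2 stood at 62.1% for Fads2, 70.5% for Elovl6, 79.4% for Fads1, 82.0% for Acly and 92.4% for Fasn. It stood at 87.4% for Scd2 and 88.2% for Acaca, which were lowest in other tumours, but at 99.8% for Scd1 and 110.5% for Elovl5. HCD 1 was highest for Fasn, Scd1, Elovl6 and Acacb, and ND 1 for Acly, Scd2, Fads1 and Fads2. HCD 2 also had the highest summed macrophage, T cell and endothelial markers. The 8 macrophage genes, led by Lyz2 and C1qa, summed to 1006 FPKM in HCD 2, and to between 255 and 608 FPKM in the other 5 tumours. The 7 T cell genes, with Trac and Cd3g the most abundant, summed to 51.7 FPKM in HCD 2 and to between 6.76 and 35.8 FPKM elsewhere, and the 6 endothelial genes, led by Plvap and Esam, to 112 FPKM and to between 52.1 and 65.5 FPKM. Its hepatocyte markers had the lowest sum, 1563 FPKM against 1718 to 2203 FPKM in the other tumours. Alb and Rbp4, which make up most of that sum, were lowest in HCD 2. Afp, Apoa1 and Ttr were lowest in ND 3 and Fgb in ND 2. By diet, 7 of 8 macrophage, 7 of 7 T cell and 6 of 6 endothelial genes had a higher mean in HCD, against 55.7% of all tested genes. None was called in limma (lowest adjusted p 0.794), against 0.00% of all tested genes. The part of these other cells in the low values was not tested. Without HCD 2, 5 of the 9 tested members had a higher mean in HCD, in place of 3, and their median difference was 0.031. The macrophage genes then had a median difference of 0.165 between the diets, against 0.466 with all 6 tumours and 0.153 without ND 1. The T cell median of 0.676 was 0.434 without HCD 2 and 0.171 without ND 1. The endothelial median of 0.352 was 0.063 without HCD 2 and 0.25 without ND 1.

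**Figure D3:**
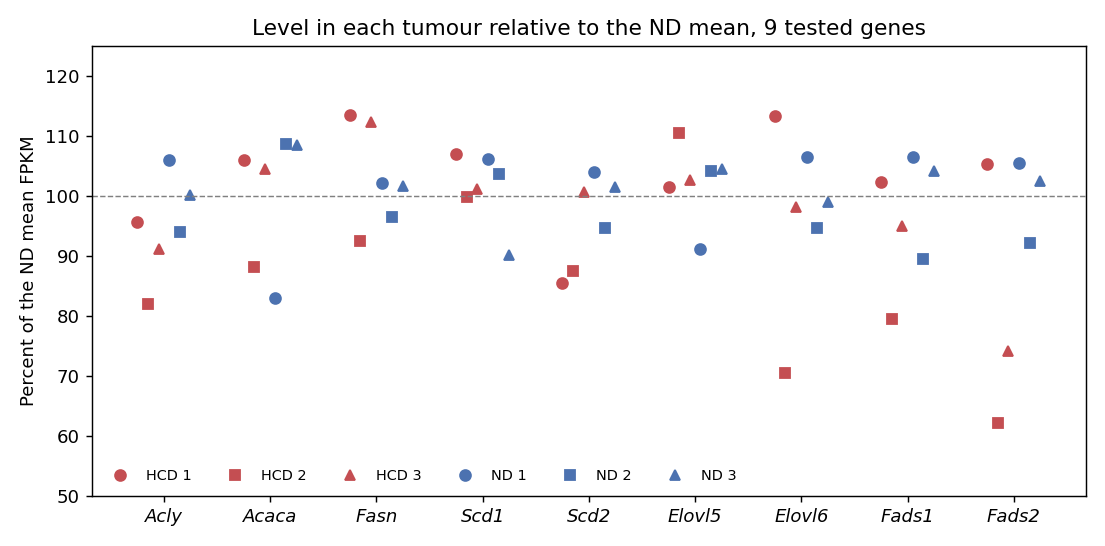
FPKM of the 9 tested genes in each tumour as a percent of the gene's ND mean (dashed line, 100%), HCD in red left of ND in blue; the axis starts at 50%. The HCD 2 squares lie at 62.1% for Fads2 and 70.5% for Elovl6 but at 110.5% for Elovl5.

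Balance within pairs of related enzymes does not depend on library scaling. No pair passed the exact test between the diets. Scd1 made up 23.4 ± 1.96% of the summed Scd1 and Scd2 FPKM in HCD and 21.3 ± 1.76% in ND tumours (SD, n = 3 each; exact two-sided permutation p = 0.3). Fads2 made up 46.9, 40.2 and 40.1% of the Fads pair in HCD 1 to HCD 3, against 46.0, 47.0 and 45.8% in ND 1 to ND 3. The ND shares were nearly equal, and HCD 2 and HCD 3 lay below all of them, with HCD 1 among them (difference -3.83 points, exact permutation p = 0.3). Elovl6 made up 21.4 ± 4.65% of the Elovl5 and Elovl6 sum in HCD and 23.4 ± 2.43% in ND tumours (exact permutation p = 0.7), a difference of -2.01 points that was 0.549 without HCD 2. Acaca made up 89.5 ± 5.42% of the carboxylase pair in HCD and 92.1 ± 3.12% in ND tumours (exact permutation p = 0.6), a difference of -2.59 points that was 0.202 without HCD 1. Over the 4 pairs the adjusted p was 0.6 for the Scd and Fads pairs and 0.7 for the other 2, and 3 against 3 tumours cannot give an exact two-sided p below 0.1.

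**Figure D4:**
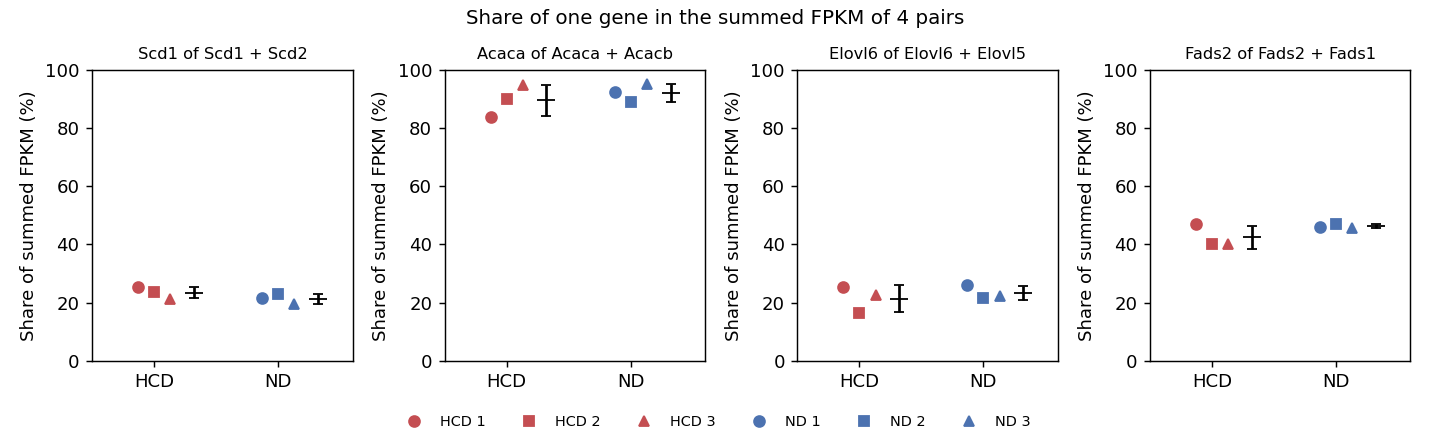
Share of the first-named gene in the summed FPKM of each pair, in percent, per tumour (points) with mean ± SD (bars, n = 3 per group), HCD left of ND. The Fads2 share is close to 46% in all 3 ND tumours and near 40% in HCD 2 and HCD 3.

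Acacb, the carboxylase at the outer mitochondrial membrane, whose malonyl-CoA restrains fatty acid oxidation and which is abundant in muscle, was the most variable member, with a coefficient of variation of 55.6% over the 6 libraries (ENSMUSG00000042010, chromosome 5, 114146535 to 114250761). It had 0.682, 0.334 and 0.194 FPKM in HCD 1 to HCD 3, against 0.228, 0.459 and 0.190 FPKM in ND 1 to ND 3. These stand for 181, 89 and 53 reads in the HCD tumours and 68, 157 and 51 reads in the ND tumours, so the counting error was 7.4 to 14.0% while the values spread 3.596-fold. HCD 1 and ND 2 were highest, 1 tumour of each diet. The same tumours held the most skeletal muscle RNA: 9 muscle genes summed to 879, 91.8 and 6.59 FPKM in HCD 1 to HCD 3, against 5.44, 774 and 12.5 FPKM in ND 1 to ND 3. Among the 9 were Acta1, the skeletal actin, at 449 FPKM in HCD 1 and 275 FPKM in ND 2, and Ckm, muscle creatine kinase. The adipocyte genes Adipoq and Cfd were also higher in HCD 1, HCD 2 and ND 2, at 0.826 to 0.952 and 8.34 to 11.1 FPKM. Elsewhere they reached at most 0.12 and 1.52 FPKM. The adipocyte genes Plin4, Cidec, Plin1, Aqp7 and Retn, all at low levels, showed the same split, Retn only just. Fabp4, Lipe and Lep, also adipocyte genes, did not separate these tumours. The part of muscle or fat in the Acacb values was not tested. The log2 difference with diet, 0.11 without the filter on low values (95% interval -0.25 to 0.47, limma adjusted p = 0.889), was -0.028 without HCD 1 and 0.063 without both muscle-rich tumours.

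**Figure D5:**
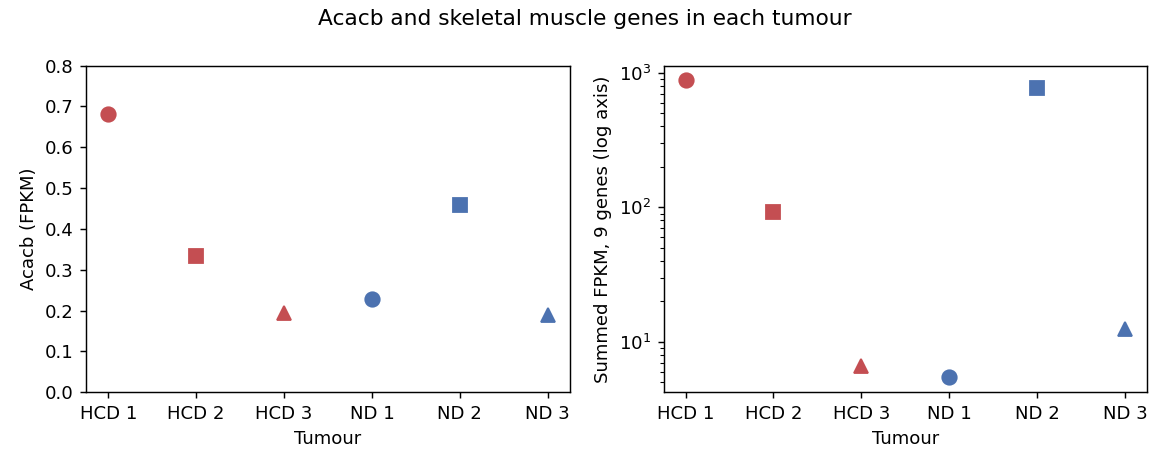
Acacb FPKM (left, linear axis from 0) and the summed FPKM of 9 skeletal muscle genes (right, log axis) in each tumour, HCD in red and ND in blue. HCD 1 and ND 2 are the highest tumours in both panels, with HCD 2 in place 3.

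Around the 10 genes, 86 genes on 9 further lists of the pathway and its control were read from the same fit, 76 of them above the level for testing. None was called (0 of 76, against 0.00% of all tested genes). An unadjusted limma p under 0.05 was found for 8, against 5.88% of all tested genes, and 42 had a higher mean in HCD, against 55.7%. Groups did not overlap in 10 of the 76, against 12.1% of all tested genes. Of the genes named below these include Slc25a1, Cs, Hsd17b12, Cyb5a, Insig2, Mbtps1 and Acsl5.

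Genes that supply carbon and reducing power averaged higher in HCD tumours for 5 of the 6 that were tested (median log2 difference 0.10). Slc25a1, the carrier that exports citrate from mitochondria, was the exception, with 15.8, 15.0 and 15.2 FPKM in HCD 1 to HCD 3, against 18.9, 15.9 and 18.2 FPKM in ND 1 to ND 3. Its groups did not overlap, though HCD 1 and ND 2 were nearly level, and its difference of -0.19 did not pass (limma adjusted p = 0.794). Cs, citrate synthase, averaged 104 ± 6.44 FPKM in HCD and 93.4 ± 5.72 FPKM in ND tumours (SD, n = 3 each; limma adjusted p = 0.794). Me1, malic enzyme, a source of NADPH, is counted among the 5 but differed by 0.00 (95% interval -0.44 to 0.44). Acss2, which makes acetyl-CoA from acetate, was low throughout, at 0.461 ± 0.079 FPKM in HCD and 0.428 ± 0.024 FPKM in ND tumours (SD, n = 3 each).

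Other enzymes of the elongation cycle averaged higher in HCD tumours for 7 of the 9 that were tested (median 0.05). Hsd17b12, the ketoacyl reductase of the cycle, had 35.2, 33.3 and 35.0 FPKM in HCD 1 to HCD 3, against 37.3, 39.1 and 39.6 FPKM in ND 1 to ND 3. Its groups did not overlap, but its difference of -0.16 did not pass (limma adjusted p = 0.794). Hacd3, a dehydratase of the cycle, differed by 0.31 (limma adjusted p = 0.794), with HCD 2 (39.1 FPKM) inside the ND range of 35.1 to 40.1 FPKM, and Tecr, the last reductase, by 0.003. Elovl3 and Elovl4 lay below the level for testing.

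Among the other desaturases and their electron supply, 4 of 6 tested members had a higher mean in HCD (median 0.038). Cyb5a, cytochrome b5, which passes electrons to Scd and Fads enzymes, had 20.5, 23.1 and 21.8 FPKM in HCD 1 to HCD 3, against 17.9, 18.6 and 16.3 FPKM in ND 1 to ND 3. Every HCD tumour was above every ND tumour, and the difference of 0.29 (SE 0.072) had the lowest unadjusted p of all these lists (0.00577), yet it did not pass over all genes (limma adjusted p = 0.794). Cyb5b, its mitochondrial relative, differed by 0.10 and Cyb5r3, the reductase that feeds both, by 0.038. Scd3 had a mean of 0.211 FPKM over the 6 libraries.

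Regulators of transcription were divided, with 11 of 19 means higher in HCD (median 0.05). Srebf1, the SREBP gene that drives fatty acid synthesis, averaged 23.9 ± 1.15 FPKM in HCD and 22.8 ± 0.566 FPKM in ND tumours (SD, n = 3 each), a difference of 0.062 (95% interval -0.073 to 0.20, limma adjusted p = 0.821). Srebf2, which favours sterol genes, averaged 48.0 ± 7.04 FPKM in HCD and 57.1 ± 4.25 FPKM in ND tumours (difference -0.26, limma adjusted p = 0.794). Insig1 and Insig2, which hold SREBP back when sterols are plentiful, differed by -0.18 and -0.19 (limma adjusted p = 0.807 and 0.794), and Mbtps1, a protease that activates SREBP, by -0.074. Mlxipl, which encodes ChREBP, was near the level for testing, at 0.668 ± 0.372 FPKM in HCD and 0.560 ± 0.215 FPKM in ND tumours. Nr1h3, the LXR alpha gene, differed by 0.35 (limma adjusted p = 0.794) and was highest in HCD 2 (3.68 FPKM) and lowest in ND 1 (1.42 FPKM), as was the sum of the macrophage genes.

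Genes acting on the enzymes themselves, such as the subunits of AMPK, which inhibits both carboxylases, averaged higher in HCD tumours for 7 of the 11 that were tested (median 0.046), with Prkaa1 differing by 0.056 and Prkab1 by -0.21. Mitochondrial fatty acid synthesis, a separate route that makes the lipoic acid precursor, had 2 of 6 means higher (median -0.018), with Mcat, Mecr and Cbr4 differing by -0.032, 0.15 and -0.18. Of genes that release or activate the product, 2 of 4 had a higher mean. Acsl5, an acyl-CoA synthetase, was at 203, 208 and 209 FPKM in HCD 1 to HCD 3, against 232, 227 and 221 FPKM in ND 1 to ND 3. Its groups did not overlap, and its difference of -0.13 did not pass (limma adjusted p = 0.794), and Acsl4 differed by 0.068.

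Genes of sterol synthesis and uptake averaged lower in HCD tumours for all 11 that were tested (median -0.17), where 55.7% of all tested genes averaged higher. Without HCD 2, 8 of the 11 averaged lower and the median was -0.024. HCD 2 had the highest summed macrophage, T cell and endothelial markers and the lowest summed hepatocyte markers. The part of those cells was not tested. With any other single library left out, 10 or 11 of the 11 averaged lower, with medians from -0.297 (without ND 2) to -0.09 (without ND 1). With all 6 tumours, Hmgcs1 and Stard4 differed by -0.12 and -0.30, and neither was called (limma adjusted p = 0.884 and 0.794). LXR targets of sterol handling averaged higher in HCD tumours for all 4 that were tested (median 0.39, and 0.295 without HCD 2), also without a call. Abcg1, a cholesterol exporter, differed by 0.77, Abca1 by 0.38 and Lpcat3, which places polyunsaturated fatty acids into phospholipids, by 0.26 (limma adjusted p = 0.794 each), while Scd1, Fasn and Srebf1, which LXR can also induce, differed by 0.04, 0.076 and 0.062. Summed LXR targets were highest in HCD 2 (79.0 FPKM), the tumour with the most macrophage RNA. Lpcat3, the most abundant of them, was at 28.0 FPKM in HCD 2, the lowest of the HCD tumours. HCD 1 and HCD 3 had 34.1 and 32.3 FPKM of Lpcat3, and the ND tumours 24.9 to 28.3 FPKM. The other tested targets were each highest in HCD 2. The difference between these lists and the 10 genes was not tested.

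Fat and skin also express lipogenic genes, and their markers were read in the same libraries. Of 10 adipocyte genes 7 lay below a mean of 0.5 FPKM, among them Adipoq, Lep, Plin1 and Cidec. The 10 summed to 20.8, 26.7 and 6.96 FPKM in HCD 1 to HCD 3, against 10.5, 17.9 and 10.3 FPKM in ND 1 to ND 3. Fabp4 and Cfd were the most abundant. Cfd stood at 8.34 to 11.1 FPKM in HCD 1, HCD 2 and ND 2, and at 0.735 to 1.52 FPKM elsewhere. Adipoq stood at 0.826 to 0.952 FPKM in those tumours and at 0.027 to 0.12 FPKM elsewhere. Plin4, Cidec, Plin1, Aqp7 and Retn, each below a mean of 0.5 FPKM, showed the same split, Retn only just. Fabp4, Lipe and Lep did not separate these tumours. Of 9 sebaceous gland and skin genes Awat1 was listed at 0 in every library, and Awat2, Mc5r, Elovl3 and Krt79 were below 0.5 FPKM. Those 9 summed to 15.2 FPKM in HCD 3 and to 3.29 to 4.32 FPKM in the other tumours, with Krt5 and Krt14 highest. The part of fat or skin in the values of the 10 fatty acid genes was not tested.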

How the data were processed

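Per the file headers, the authors deposited FPKM values for 34745 mouse Ensembl gene IDs, with 1 column for each of the 6 tumours. Per the labels' protocols, column-purified total RNA went into paired-end TruSeq libraries. Tools listed in the submitters' processing notes, with no role stated, are TopHat2 2.0.9, CASAVA 1.8, edgeR and HTSeq, and the build is mm10. Strand use, treatment of shared reads and the annotation release are not given in the sources used here. Depth per gene was read from the values: whole reads within 0.02 of a read came out for 99.63% of the 13417 tested genes, against 0.00% of 600 decoy genes.

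Genes that averaged 0.5 FPKM or more were tested with limma 3.58.1 (R 4.3.3) on log2(FPKM + 1), with a variance trend, two-sided, and Benjamini-Hochberg adjustment over all tested genes at 0.05. Differences are HCD minus ND, and understate changes of low genes. Pair shares were compared by exact permutation (scipy 1.17.1). The limma code was tested on simulated data. Positions are from GENCODE M21 on GRCm38, the assembly of mm10.

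The 10 members, the 9 pathway lists, 7 marker lists and the tests were chosen with earlier results of these data known. Named genes were the members, the 2 most abundant and the lowest-p gene of each pathway list, 8 regulators and enzymes of interest, and the 2 most abundant markers of each list; 1 gene that the rule names is not reported here. Cps1, Cyp2e1, Apoa2, Serpina1a, Afp, Apoa1, Ttr, Fgb, Lipe, the adipocyte and skin genes under 0.5 FPKM, Elovl3, Elovl4 and Scd3 were named after their values were seen. Alternatives comprised a pseudocount of 0.1, other filters, 2 rescalings, limma-voom, the replicate number as a block and libraries left out.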

Additional observations from a re-analysis of the deposited data

How the results depend on the processing

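No member was called in any setting run, and the count of genes called over the whole table was 0 in both directions, except that leaving out each library gave 0 to 1 genes lower (1 without ND 2, no member). Members with a higher mean in HCD numbered 3 of 9, with 3 to 5 when a library was left out (5 without HCD 2), 3 after centring on the median of all tested genes, and 3 after either rescaling. Signs turned for Acaca (-0.002), which was 0.063 without HCD 2, 0.048 without ND 2, 0.046 without ND 3 and 0.011 without HCD 1 and ND 2 together. With single libraries left out Acaca ran from -0.10 to 0.063, Scd1 from -0.032 (without ND 3) to 0.085, Acacb from -0.028 (without HCD 1) to 0.219, and Elovl6 reached 0.067 without HCD 2, against -0.251 without HCD 1 and ND 2. Acacb was 0.30 with a pseudocount of 0.1 and 0.34 in limma-voom, against 0.11 with a pseudocount of 1, since its values lie below 1 FPKM. With libraries left out in turn the share difference ran from -5.20 to 0.202 points for the Acaca pair (0.202 without HCD 1), from -3.996 to 0.549 points for the Elovl pair (0.549 without HCD 2, and -4.864 without HCD 1 and ND 2), from 1.16 to 3.13 points for the Scd pair and from -6.09 to -2.69 points for the Fads pair. Without 1 library the exact test has 3 against 2 tumours, and without HCD 1 and ND 2 it has 2 against 2. The causes were not tested. Same-numbered tumours did not deviate together throughout (correlations of -0.19, 0.142 and 0.059). Only pair 2 was above the pairing threshold of 0.1, and the replicate numbers were not taken as pairs. With the replicate number as a block 0 members and 0 genes were called, and 3 of 9 members had a higher mean in HCD. Recomputing over the M21 exon length and centring were chosen after seeing the data.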

Other observations

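Beyond the values above, the lengths implied by the deposited FPKM departed from the GENCODE M21 exon length by a gene-specific factor: 1.72 for Elovl6, 1.55 for Acly, 1.35 for Acacb, 1.27 for Fasn, 1.19 for Acaca, 1.10 for Elovl5, 0.998 for Scd2, 0.989 for Scd1, 0.915 for Fads2 and 0.718 for Fads1. Over the M21 lengths Elovl6 made up 29.7% of the Elovl5 and Elovl6 sum in HCD and 32.2% in ND tumours, and Fads2 made up 48.4% of the Fads pair in HCD and 52.3% in ND tumours. The sources used here do not name the annotation behind these lengths.

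Among the smaller members of these families, Scd4 averaged 0.718 FPKM and Scd3 0.211 FPKM over the 6 libraries. Elovl1, which lengthens saturated very long chains, averaged 11.1 FPKM and Elovl7 10.5 FPKM, both above Elovl6 in the deposited FPKM. Over its M21 length Elovl6 averaged 9.445 FPKM, and no such value is given for Elovl1 and Elovl7. Fads3 averaged 18.6 FPKM. Elovl2, the liver elongase for the longest polyunsaturated fatty acids, had 1.19, 0.543 and 0.742 FPKM in HCD 1 to HCD 3, against 0.964, 0.305 and 1.08 FPKM in ND 1 to ND 3. These genes were chosen after their values were seen, and none of those tested was called (limma adjusted p of 0.964 for Elovl2). Scd3 lay below the level for testing.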
